A study of Mus musculus with 8 samples.

Results

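The 10 genes described here encode the constant regions of the mouse antibody chains and the joining chain of antibodies. They were chosen by symbol, 10 of the 54749 genes to which the deposited transcripts were assigned, with their KO and floxed values already known. Ighm and Ighd encode the unswitched heavy chains of IgM and IgD, Ighg3, Ighg1, Ighg2b, Ighg2c and Igha the switched heavy chains of IgG and IgA, Igkc and Iglc1 light chains, and Jchain the joining chain. RNA of LT-HSCs, the long-term repopulating stem cells of the bone marrow, was sequenced from 4 homozygous asrij floxed mice (replicates 1, 3, 4 and 5) and 4 whole-body asrij KO mice (replicates 2, 3, 4 and 5), all 6 months old by the sample labels. Asrij is the gene Ociad1, the floxed mice served as controls, and each library came from an independent mouse. The study's methods give both sexes and C57BL/6J as the wild type strain. They give the sort of these libraries as LSK CD150+ CD48+ but sort LT-HSCs for other assays as CD48-, so which cells the gate held is uncertain.

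A B cell first makes IgM and IgD, both from the same rearranged gene by splicing a long primary RNA in different ways. After activation, class switch recombination joins the same variable region to a constant gene farther downstream and so gives IgG, IgE or IgA. Each heavy chain can be made in a membrane form, which serves as the B cell receptor, or in a secreted form, according to which end of the RNA is used. Plasma cells, many of which reside in the bone marrow, make the secreted form in large amounts. The J chain ties secreted IgM and IgA into polymers. Haematopoietic stem cells carry these genes unrearranged and are not known as antibody makers.

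The heavy-chain genes lie in a row on the minus strand of chromosome 12 (GRCm38), in the order Ighm (113418558 to 113422730), Ighd (113406604 to 113416324), Ighg3 (113356224 to 113361232), Ighg1 (113325240 to 113330523), Ighg2b (113302965 to 113307933), Ighg2c (113285325 to 113288932) and Igha (113254830 to 113260236). Igkc lies on chromosome 6 (70726435 to 70726966, plus strand), Iglc1 on chromosome 16 (19061618 to 19062071, minus strand) and Jchain on chromosome 5 (88519809 to 88527891, minus strand). Ociad1 lies on the same chromosome 5, ending 15.2 megabases before Jchain.

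In the secreted heavy chains shown here, the coding ends separate the isotypes that bind the J chain from those that do not. The last 60 bases of the coding sequence, stop codon included, are shown from the GENCODE M21 transcripts (GRCm38, minus strand), with the codon before the last amino acid in capitals. In Ighm and Igha it is a cysteine codon (TGC), through which the tail binds the J chain, and in the IgG genes shown, Ighg1 and Ighg2c, it is a glycine codon (GGT).
Ighm, chr12:113420867-113420926: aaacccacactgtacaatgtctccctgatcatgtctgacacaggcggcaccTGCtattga
Igha, chr12:113258768-113258827: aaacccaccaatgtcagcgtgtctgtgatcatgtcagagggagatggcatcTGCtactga
Ighg1, chr12:113328976-113329035: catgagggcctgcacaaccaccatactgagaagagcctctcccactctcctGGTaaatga
Ighg2c, chr12:113287389-113287448: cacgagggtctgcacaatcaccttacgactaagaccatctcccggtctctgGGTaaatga

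The membrane forms end instead in exons that lie downstream of this stop codon. The first membrane exon of Ighm and of the 4 IgG genes is shown because the counts allow the part of each gene beyond the secreted end to be taken alone. Capitals mark the bases at which the 4 IgG exons are not all the same, and none are marked in Ighm.
Ighm, chr12:113418953-113419068: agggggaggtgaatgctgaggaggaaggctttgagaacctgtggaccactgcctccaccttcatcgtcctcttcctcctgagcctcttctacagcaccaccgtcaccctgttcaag
Ighg3, chr12:113358070-113358200: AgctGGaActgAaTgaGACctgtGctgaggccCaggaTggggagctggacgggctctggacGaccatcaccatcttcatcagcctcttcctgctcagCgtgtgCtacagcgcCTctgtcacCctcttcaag
Ighg1, chr12:113327442-113327572: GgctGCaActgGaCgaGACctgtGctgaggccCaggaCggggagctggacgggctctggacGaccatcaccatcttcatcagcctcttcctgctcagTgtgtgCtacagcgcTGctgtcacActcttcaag
Ighg2b, chr12:113304909-113305039: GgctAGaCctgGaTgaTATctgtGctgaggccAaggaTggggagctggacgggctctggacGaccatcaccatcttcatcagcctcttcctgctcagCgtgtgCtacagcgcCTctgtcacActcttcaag
Ighg2c, chr12:113285912-113286042: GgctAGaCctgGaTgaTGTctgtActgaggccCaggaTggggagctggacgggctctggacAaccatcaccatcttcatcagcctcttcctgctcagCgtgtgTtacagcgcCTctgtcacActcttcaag
Of the 131 bases, 113 were the same in all 4 IgG exons, and Ighg2b and Ighg2c were the most alike (96.18% of bases). Over the whole counted transcripts the genes were more distinct. Of the stretches of 50 bases in Ighg2c, 6.01% also occur in Ighg2b, while 4.33% of those in Ighg2b, 1.65% in Ighg3 and 0.41% in Ighg1 occur in another gene. None of those in Ighm, Ighd, Igha, Igkc, Iglc1 or Jchain do. By exact matches of spliced sequence the isotypes can therefore be told apart, except for a small share of the IgG sequence. That share includes part of the membrane exons shown. Introns, which the counts also cover, were not compared, and how shared reads were counted is not given.

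The library totals ranged from 23412834 to 44874883 gene counts, and each of the 10 genes had at least 118 counts in every library. Ociad1, the targeted gene, had 31.3 to 66.9 CPM (counts divided by library size after TMM, a normalization for library composition) in floxed and 11.7 to 19.7 CPM in KO libraries. The part of it between 73304127 and 73305159, spanned by 1 short transcript, had 46 to 279 counts in floxed and 0 to 5 in KO libraries, so the libraries matched their labels. Defining markers of the labelled cells were present at low levels. The summed level of 9 stem and progenitor genes was 140.1 to 174 CPM in floxed and 139.9 to 165 CPM in KO libraries, against 26661 to 66783 CPM and 119341 to 291956 CPM for 8 erythroid genes, haemoglobins included. Kit, the receptor that marks these cells and the most abundant of the list, had 51.6 to 60.2 CPM in floxed and 46.8 to 53.2 CPM in KO libraries. Other genes of the sort were lower. Ly6a (Sca1) had 4.29 to 15.2 CPM in floxed and 8.73 to 11.3 CPM in KO libraries. Slamf1 (CD150) had only 0.88 to 2.19 CPM in floxed and 1.56 to 4.39 CPM in KO libraries. Floxed replicate 3 was the lowest floxed library for 8 of the 10 genes, all but Ighm and Ighd, and the values of the 10 genes are given with and without it.

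Among the unswitched heavy chains, Ighm had a somewhat lower mean in KO mice, with overlapping groups. Floxed replicates 1, 3, 4 and 5 had 656, 732, 966 and 980.1 CPM of it, and KO replicates 2, 3, 4 and 5 had 621, 582, 747 and 749 CPM. The floxed mean was 833 ± 164 CPM, the KO mean was 675 ± 86.2 CPM (SD, n = 4 for both) and the log2 fold change was -0.30 ± 0.21 (SE, edgeR). Within the pairs numbered 3, 4 and 5 the log2 ratios were -0.33, -0.37 and -0.39, lower in the KO library each time. In a bulk library, fewer cells of a type and less RNA per cell cannot be told apart, for this gene and for those that follow. Ighd had 38.8, 42.6, 37.2 and 36.1 CPM in floxed and 64.9, 61.0, 59.7 and 63.8 CPM in KO libraries. Every KO library lay above every floxed library, floxed replicate 3 included. The log2 fold change of Ighd was 0.69 ± 0.13 (SE), and 0.75 ± 0.10 without floxed replicate 3. Ighd was the only gene of the 10 with a higher mean in KO than in floxed mice.

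All 5 switched heavy chains had lower mean levels in KO than in floxed mice, and the fold differed widely among them. Ighg1 had 231, 333 and 333 CPM in floxed replicates 1, 4 and 5 and 3.88 CPM in floxed replicate 3, against 5.41, 5.70, 5.002 and 7.75 CPM in the KO libraries. Floxed replicate 3 was below all 4 KO libraries, so that the groups overlapped although the other floxed libraries were far above them. The log2 fold change was -5.24 ± 1.02 (SE) over all libraries and -5.64 ± 0.22 without floxed replicate 3.

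Ighg2c had 136, 222 and 223 CPM in floxed replicates 1, 4 and 5, 7.07 CPM in floxed replicate 3, and 8.33, 9.91, 11.96 and 10.7 CPM in KO libraries. Its log2 fold change was -3.85 ± 0.80 (SE), or -4.24 ± 0.22 without floxed replicate 3. Ighg2b had 251, 338 and 349 CPM in floxed replicates 1, 4 and 5, 26.2 CPM in floxed replicate 3, and 33.7, 32.7, 38.4 and 37.5 CPM in KO libraries. For both genes, floxed replicate 3 was again the lowest of the 8 libraries. The log2 fold change of Ighg2b was -2.76 ± 0.62 (SE), or -3.13 ± 0.15 without that library.

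Ighg3, the IgG gene with the lowest mean level in both genotypes, had 18.1, 26.7 and 25.1 CPM in floxed replicates 1, 4 and 5, 6.26 CPM in floxed replicate 3, and 3.74, 3.98, 4.19 and 5.47 CPM in KO libraries. Here floxed replicate 3 stayed above every KO library, and the groups did not overlap. The log2 fold change was -2.13 ± 0.40 (SE), or -2.41 ± 0.20 without floxed replicate 3.

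Igha, the heavy chain of IgA, the antibody of mucosal surfaces, was the most abundant switched chain. It had 442, 702 and 756 CPM in floxed replicates 1, 4 and 5, 110.01 CPM in floxed replicate 3, and 122, 102, 153 and 158 CPM in KO libraries. Floxed replicate 3 lay within the KO range. The log2 fold change was -1.91 ± 0.49 (SE), or -2.23 ± 0.23 without floxed replicate 3.

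The light chains followed the switched heavy chains. Igkc, the kappa chain carried by most mouse antibodies, had 990.1, 1740.1 and 1551 CPM in floxed replicates 1, 4 and 5, 267 CPM in floxed replicate 3, and 265, 242, 334 and 351 CPM in KO libraries. Iglc1 had 47.0, 60.4 and 53.7 CPM in floxed replicates 1, 4 and 5, 7.45 CPM in floxed replicate 3, and 14.99, 13.9, 11.8 and 13.1 CPM in KO libraries. For Igkc floxed replicate 3 was inside the KO range, and for Iglc1 it was below it. The log2 fold changes were -1.93 ± 0.48 for Igkc and -1.64 ± 0.50 for Iglc1 (SE), and -2.25 ± 0.23 and -1.98 ± 0.14 without floxed replicate 3.

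In floxed replicates 1, 3, 4 and 5 Jchain had 139, 57.2, 135 and 106 CPM, against 40.9, 38.7, 28.7 and 30.6 CPM in KO libraries. Floxed replicate 3 was the lowest floxed library, but every KO library was below it. The log2 fold change was -1.66 ± 0.28 (SE), or -1.86 ± 0.17 without floxed replicate 3.

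**Figure D1:**
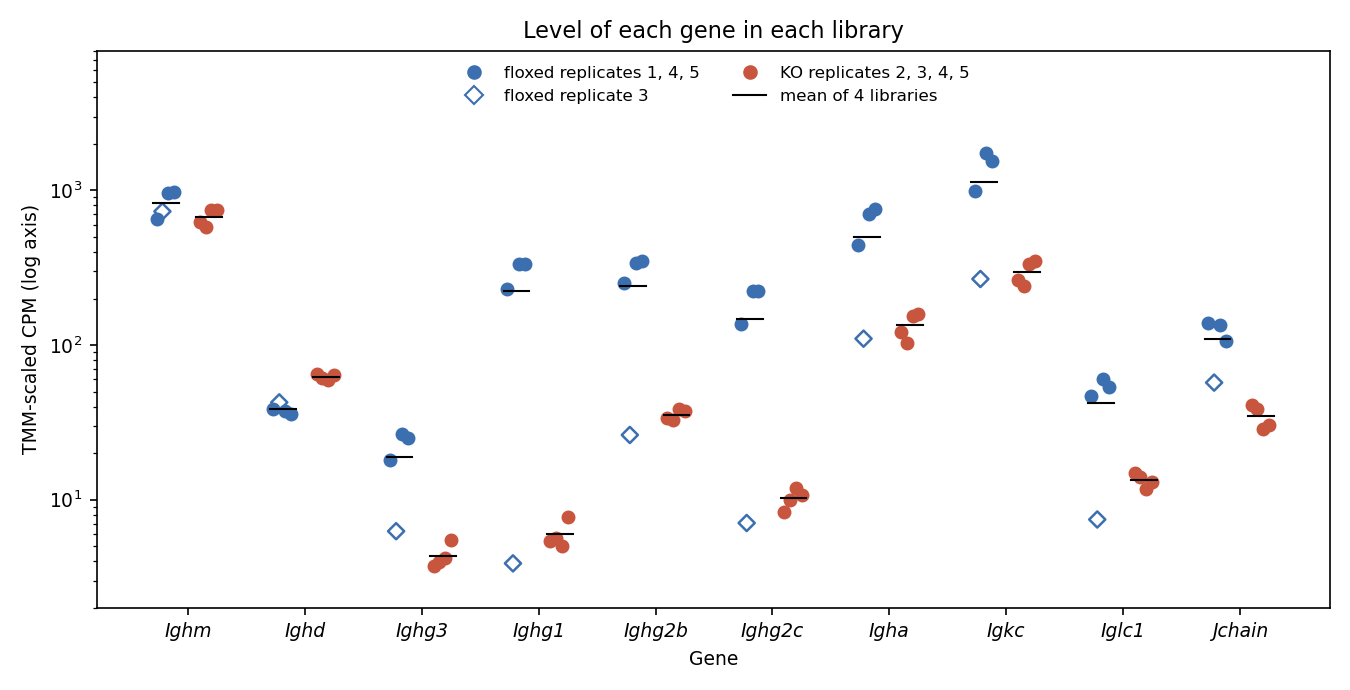
Level of the 10 genes in each library, in TMM-scaled CPM on a log axis, with floxed libraries in blue, KO libraries in red and the mean of 4 libraries as a black line. The open diamond is floxed replicate 3, which lies at 3.88 CPM for Ighg1 where the other floxed libraries lie at 231 to 333 CPM, while for Ighd and Ighm it lies near them.

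Called here means an adjusted p under 0.05 together with a log2 fold change beyond 1.5 in either direction, in the fit over all genes, the thresholds of the study's methods. Of the 10 genes, all of which passed the filter on low counts, 5 were called lower in KO (Ighg3, Ighg1, Ighg2b, Ighg2c and Jchain) and 0 higher, against 0.74% and 0.452% of the 21902 genes tested. The genes were chosen with this contrast known, so nothing is read from these counts. Without floxed replicate 3, 8 of the 10 were called lower, against 1.41% of all genes tested in that fit. Without floxed replicate 4, 1 was called lower, and without any other single library 0 were, although 8 had an unadjusted p under 0.05 in those fits. Libraries numbered 1 to 3 deviated together from their genotype means, as did those numbered 4 and 5. The deviations of same-number libraries correlated at 0.427 to 0.707, and those of other pairs within these groups at 0.359 to 0.711. In a fit blocked by replicate number over the 3 pairs numbered 3, 4 and 5, 0 of the 10 were called. Of all genes in that fit, 0.0833% were called lower and 0.12% higher. In the same 6 libraries with no block 0 were called as well, so the loss cannot be assigned to the block. In that blocked fit the log2 fold changes were -4.21 ± 1.58 for Ighg1, -2.99 ± 1.11 for Ighg2c, -2.13 ± 0.77 for Ighg2b, -1.83 ± 0.40 for Ighg3 and -1.52 ± 0.34 for Jchain (SE). No KO library reached the lowest floxed library for 2 of the 10 genes (Ighg3 and Jchain) and all KO libraries exceeded the highest floxed library for 1 (Ighd), against 7.66% and 7.1% of all genes tested. With floxed replicate 3 set aside, every KO library was below the other floxed libraries for 8 genes, all but Ighm and Ighd, against 15.2% of all genes tested.

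**Figure D2:**
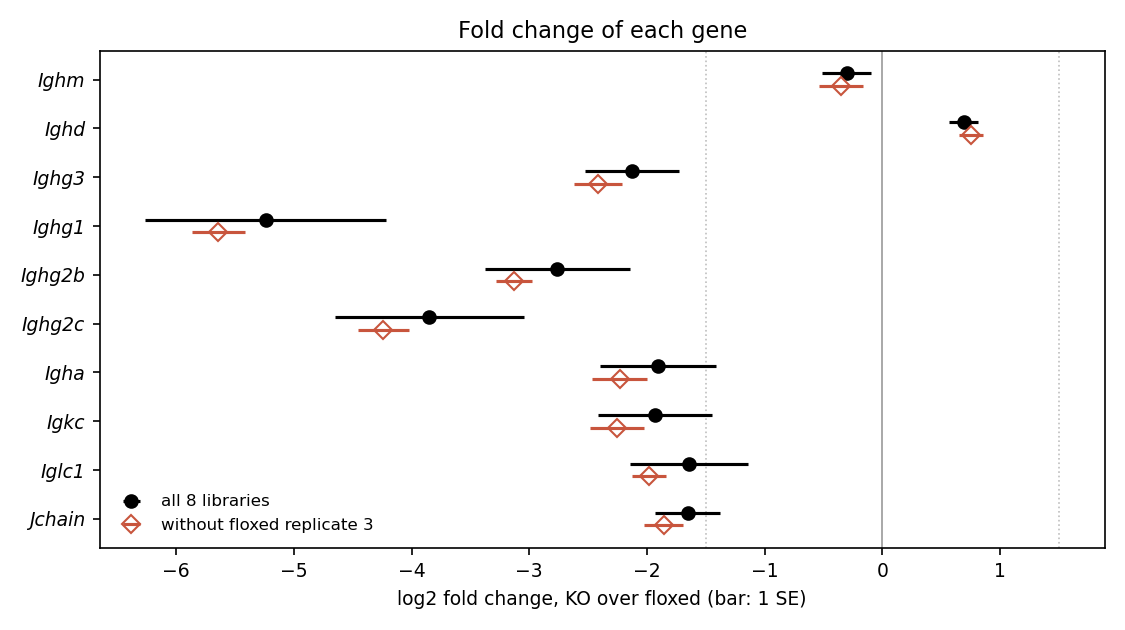
Log2 fold change of KO over floxed for each gene, with its standard error, over all 8 libraries (filled circles) and without floxed replicate 3 (open diamonds). Dotted lines mark the fold threshold of 1.5. The values run from -5.24 for Ighg1 to 0.69 for Ighd, and the bars are shorter without floxed replicate 3 for every gene.

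The libraries numbered 1 to 3 and those numbered 4 and 5 form groups in the counts that no label names, so the contrast was also taken within each. The log2 ratio of mean CPM, KO over floxed, was -4.40 for Ighg1 within numbers 1 to 3 and -5.71 within numbers 4 and 5. It was -1.30 and -2.23 for Igha, -1.31 and -2.26 for Igkc, -1.30 and -2.03 for Jchain, and 0.63 and 0.75 for Ighd. In both groups 9 of the 10 genes were lower in KO mice. Within the pair numbered 3 alone, Ighg1 was higher in the KO library (log2 ratio 0.55), as were Ighg2b (0.32), Ighg2c (0.49) and Iglc1 (0.90). Igha (-0.10) and Igkc (-0.15) differed little there, and Ighg3 (-0.65) and Jchain (-0.56) were lower. In the pairs numbered 4 and 5, Ighg1 was lower by log2 ratios of -6.06 and -5.42. The size of the difference in the switched chains and light chains therefore turned on which floxed mouse was compared.

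The heavy-chain RNA was put together by summing the unswitched and the switched genes in each library. The unswitched sum was 695, 774, 1003 and 1016 CPM in floxed and 686, 643, 807 and 812 CPM in KO libraries, and the groups overlapped. The switched sum was 1078, 153, 1622 and 1685 CPM in floxed and 173, 155, 213 and 219 CPM in KO libraries. Switched chains made up 60.8%, 16.5%, 61.8% and 62.4% of heavy-chain CPM in floxed replicates 1, 3, 4 and 5, and 20.1%, 19.4%, 20.9% and 21.3% in KO replicates 2, 3, 4 and 5. The 95% exact (Clopper-Pearson) interval of each share was at most ± 0.48 percentage points, which covers counting error only. Floxed replicates 1, 4 and 5 thus lay within 2 percentage points of each other, the KO libraries likewise, and floxed replicate 3 was below them all. The log2 ratio of switched to unswitched was -0.07 ± 1.51 in floxed and -1.96 ± 0.07 in KO mice (SD, n = 4 each), and 0.69 ± 0.05 in floxed mice without replicate 3.

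**Figure D3:**
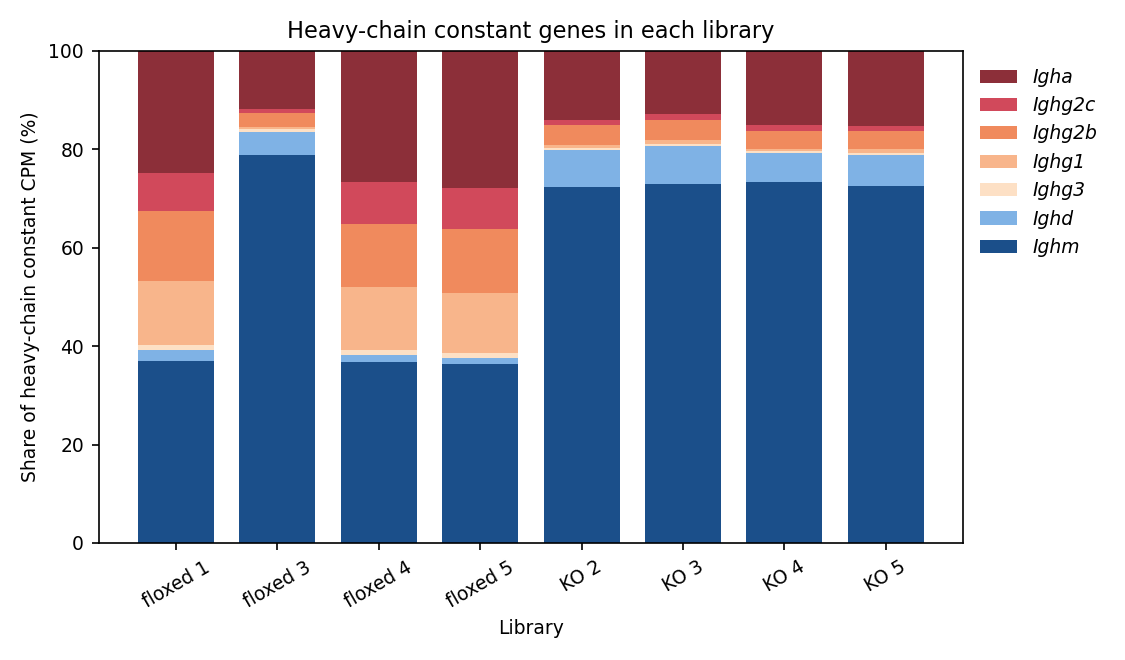
Share of each heavy-chain constant gene in the summed heavy-chain CPM of each library, with the unswitched genes in blue and the switched genes in orange to dark red. Ighm takes 36.3% to 37.0% in floxed replicates 1, 4 and 5, 78.9% in floxed replicate 3 and 72.3% to 73.3% in KO libraries.

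Within the switched chains the mix also differed. The ratios that follow are of CPM, not per length, and serve to compare libraries rather than genes. Igha had 0.69, 0.76 and 0.81 times the summed IgG level in floxed replicates 1, 4 and 5, 2.53 times in floxed replicate 3, and 2.38, 1.96, 2.58 and 2.57 times in KO libraries. Ighg1 took 12.3% to 13.02% of heavy-chain CPM in floxed replicates 1, 4 and 5 and 0.42% in floxed replicate 3, against 0.49% to 0.75% in KO libraries. Ighg3 took 0.93% to 1.02% in floxed replicates 1, 4 and 5 and 0.67% in floxed replicate 3, against 0.41% to 0.53% in KO libraries. The sum of Igkc and Iglc1 was 0.58, 0.69 and 0.59 times the summed heavy chains in floxed replicates 1, 4 and 5, 0.30 times in floxed replicate 3 and 0.32 to 0.35 times in KO libraries. Iglc2 and Iglc3, given below, were left out of this light-chain sum. The ratio of Igkc to Iglc1 was 21.1 to 35.9 in floxed and 17.3 to 28.2 in KO libraries, and the groups overlapped.

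Most ratios overlapped between the groups, but some separated all 4 KO from all 4 floxed libraries. Those of Ighd to Ighm and of Jchain to Ighm and Igha did, as did the share of Ighg3 given above. How often a ratio would separate so was not worked out, so nothing is read from the separation. Ighd was 5.92%, 5.82%, 3.85% and 3.68% of the Ighm level in floxed and 10.4%, 10.5%, 7.99% and 8.52% in KO libraries. Jchain was 12.7%, 6.79%, 8.10% and 6.13% of the summed Ighm and Igha level, the chains its product binds, in floxed and 5.51%, 5.65%, 3.19% and 3.37% in KO libraries. Against Igha alone the groups overlapped, at 14.1% to 52.0% in floxed and 18.7% to 37.8% in KO libraries.

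Levels were compared between genes per kilobase of spliced transcript, using the secreted transcript of each heavy chain. In floxed mice the order was Igkc (2138 ± 1243 CPM per kilobase), Ighm (516 ± 115), Igha (456 ± 268), Ighg2b (216 ± 134), Ighg1 (209 ± 144), Ighg2c (132 ± 91.6), Iglc1 (92.8 ± 52.3), Jchain (78.6 ± 27.1), Ighd (21.6 ± 5.83) and Ighg3 (17.5 ± 8.72) (SD, n = 4). Neighbours in this order overlapped in range, other than Jchain and Ighd. In KO mice it was Igkc (560 ± 99.1 CPM per kilobase), Ighm (371 ± 72.5), Igha (121 ± 24.2), Ighg2b (31.2 ± 2.45), Ighd (30.5 ± 1.78), Iglc1 (29.7 ± 2.96), Jchain (24.9 ± 4.29), Ighg2c (9.19 ± 1.38), Ighg1 (5.49 ± 1.04) and Ighg3 (3.29 ± 0.678). There the first 3 were ranked alike in every library, while Ighg2b, Ighd, Iglc1 and Jchain overlapped in range. Ighg1 went from rank 5 in floxed to rank 9 in KO mice, and Ighd from rank 9 to rank 5. The deposited counts cover introns, and with the genomic span as the length Ighd ranked 10 in floxed and 8 in KO mice.

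Because each heavy-chain gene has a long annotated transcript with the membrane exons and a short one that ends in the secreted exon, the counts of both give the reads that fall beyond the secreted end. This membrane part holds the membrane exons shown above and the introns around them. The span of the short transcript, called the secreted span here, also holds the exons that both forms share. Its counts therefore include RNA of the membrane form, and the share of the membrane part is not the fraction of RNA in that form. In Ighm the membrane part spans 113418558 to 113420740 on chromosome 12. It held 8.28%, 12.2%, 6.21% and 5.13% of Ighm counts in floxed replicates 1, 3, 4 and 5, and 24.2%, 22.4%, 13.6% and 13.1% in KO replicates 2, 3, 4 and 5. All 4 KO libraries were above all 4 floxed libraries, the closest being floxed replicate 3 and KO replicate 5. The 95% exact interval of each share was at most ± 0.55 percentage points. Within numbers 1 to 3 the mean shares were 10.2% in floxed and 23.3% in KO libraries, and within numbers 4 and 5 they were 5.67% and 13.4%. In CPM, the membrane part of Ighm was 63.4 ± 17.6 in floxed and 120.07 ± 24.7 in KO mice, and the secreted span 770.02 ± 172 and 555 ± 108 (SD, n = 4 each). The membrane part did not overlap between the groups (50.2 to 89.1 against 98.4 to 150.3 CPM), and the secreted span did.

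In Ighd, whose membrane part spans 113406604 to 113409551, it held 56.5%, 43.5%, 61.8% and 60.9% of counts in floxed and 62.5%, 61.0%, 61.2% and 58.5% in KO libraries. Floxed replicate 3 was the lowest and the other 7 libraries overlapped. The 95% exact interval reached ± 3.27 percentage points, in floxed replicate 4. In the KO libraries it was ± 1.90 to ± 2.36 percentage points, and the SD among them was 1.68. Most Ighd reads thus lay in the membrane part in 7 of the 8 libraries. Both parts of Ighd were at higher mean levels in KO mice, the membrane part with 37.9 ± 1.81 against 21.4 ± 1.94 CPM (SD, n = 4 for both).

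**Figure D4:**
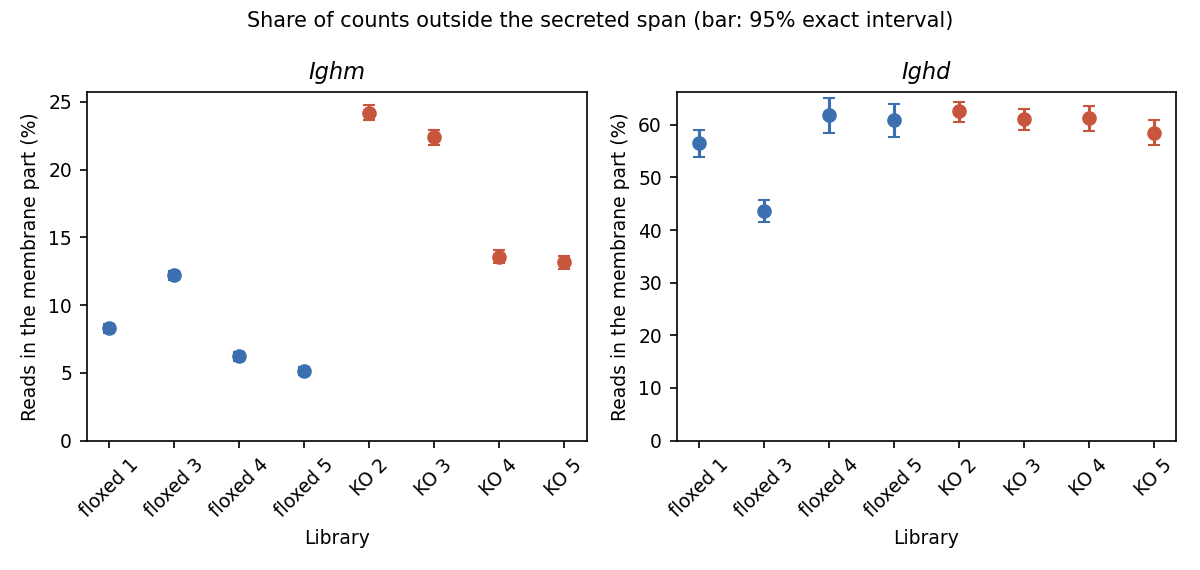
Share of the counts of Ighm (left) and Ighd (right) that fall in the membrane part, outside the span of the secreted transcript, in each library, with 95% exact binomial intervals as bars. For Ighm the floxed libraries (blue) lie at 5.13% to 12.2% and the KO libraries (red) at 13.1% to 24.2%, and for Ighd all libraries but floxed replicate 3 lie at 56.5% to 62.5%.

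The switched chains had few reads there. Over the 8 libraries, the membrane part held 30 of 26272 counts in Ighg1 (0.11%), 13 of 17926 in Ighg2c (0.073%), 138 of 76171 in Igha (0.18%), 180 of 32648 in Ighg2b (0.55%) and 131 of 2868 in Ighg3 (4.57%). The counted transcript of Ighg2c ends at its stop codon, so its part is shorter than the others. The total counts of these genes came mostly from floxed libraries. In Ighg3 the share was 15.9% to 21.2% in KO libraries, with an exact interval of up to ± 7.01 percentage points. It was 6.04% in floxed replicate 3 and 0% to 0.58% in the other floxed libraries. In Ighg2b these shares were 1.45% to 2.78%, 1.15% and 0.16% to 0.33%. In Ighg1, Ighg2c and Igha the shares of the groups overlapped. For Ighg2b the membrane part was 0.61 ± 0.23 CPM in floxed mice and 0.76 ± 0.26 CPM in KO mice (SD, n = 4 for both), where the secreted span differed by a log2 ratio of -2.79. For Ighg3 it was 0.14 ± 0.16 CPM in floxed mice and 0.79 ± 0.08 CPM in KO mice, at 0 to 20 and 19 to 31 counts. The counted membrane part of Ighg3 was thus higher in each KO library than in any floxed library in CPM, although its whole count was lower. The first membrane exons of Ighg3 and Ighg2b are the same at 123 of 131 bases, with a long identical run. Reads within that run cannot be told apart by sequence, and how they were counted is not given. The membrane counts of Ighg3 and Ighg2b may therefore not be separate. In the other 3 genes the mean was lower in KO mice, with 0.175 ± 0.064 against 0.054 ± 0.11 CPM for Ighg1, 0.096 ± 0.076 against 0.0064 ± 0.013 CPM for Ighg2c and 0.668 ± 0.35 against 0.416 ± 0.197 CPM for Igha (floxed against KO, SD, n = 4), and the ranges overlapped. For Ighg1 these rest on 4 to 10 counts a floxed and 0 to 6 a KO library, and for Ighg2c on 0 to 7 and 0 to 1. Both are near the floor, so nothing is read from their difference.

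Of the other constant genes, Iglc2 and Iglc3 did not show the pattern of Iglc1. Ighe, the heavy chain of IgE, had 56, 28 and 33 counts in floxed replicates 1, 4 and 5, 0 in floxed replicate 3, which allows up to 0.057 CPM, and 3, 4, 0 and 0 in KO libraries, and did not pass the filter on low counts. It passed without floxed replicate 3 and was then called lower (log2 fold change -4.59 ± 0.74 SE, adjusted p = 0.00474 in edgeR's fit). Iglc2 had 19.7, 12.97, 24.8 and 19.8 CPM in floxed and 25.1, 24.8, 18.8 and 20.8 CPM in KO libraries, and Iglc3 had 7.45 to 16.1 CPM in floxed and 12.1 to 22.8 CPM in KO libraries. Neither was called (adjusted p = 0.609 and 0.414 in edgeR's fit, log2 fold changes 0.21 and 0.42), and the median of both was 0.31. Iglc4 had 8 counts in all, and Ighg2a has no entry in the annotation used. The lambda genes can be told apart by sequence. The first 90 bases from a shared start in the coding sequence are shown (GENCODE M21, GRCm38, minus strand), with capitals where the 3 genes are not all the same.
Iglc1, chr16:19061980-19062069: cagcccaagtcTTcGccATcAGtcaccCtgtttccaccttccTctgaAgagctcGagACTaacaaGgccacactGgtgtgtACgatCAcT
Iglc2, chr16:19198761-19198850: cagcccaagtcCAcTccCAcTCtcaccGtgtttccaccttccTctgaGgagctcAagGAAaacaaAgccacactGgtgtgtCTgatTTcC
Iglc3, chr16:19065590-19065679: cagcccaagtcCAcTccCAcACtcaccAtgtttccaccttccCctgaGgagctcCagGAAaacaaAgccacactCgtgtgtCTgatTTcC
Iglc2 and Iglc3 were the same at 85 of these bases, and Iglc1 matched them at 71 and 70.

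Genes of antibody making and binding were taken from 8 lists with 93 genes, of which 88 were tested. In edgeR's fit 2 were called higher and 1 lower in KO mice, where 0.452% and 0.74% of all genes were, and the median log2 fold change was 0.03, against -0.006 over all genes tested. With the replicate block 0 were called (17 higher and 3 lower at an unadjusted p under 0.05). Without floxed replicate 3 the counts were 4 and 2, where 2.47% and 1.41% of all genes were called, and without any other single library 0.

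In the B cell receptor list, which holds the receptor's signalling chains and kinases, 0 of 14 genes were called by edgeR or DESeq2 (4 at an unadjusted p under 0.05, 2 in each direction, or 5 higher and 4 lower without floxed replicate 3), with a median log2 fold change of 0.03. Syk, the kinase that reads the receptor, was the most abundant, at 352 to 519 CPM in floxed and 318 to 382 CPM in KO libraries (adjusted p = 0.352). Cd79a, named after its values were seen, encodes a chain that carries the membrane antibody's signal. It had 43.9 to 64.3 CPM in floxed and 80.2 to 115 CPM in KO libraries (log2 fold change 0.81, adjusted p = 0.0408, and 0.150 with the replicate block), without passing the fold threshold. The list of mature B cell markers had 0 of 12 called by either tool (3 higher at an unadjusted p under 0.05, or 6 without floxed replicate 3), a median of 0.29, and a summed level of 585 to 822 CPM in floxed and 850.02 to 974 CPM in KO libraries. Its most abundant gene, Cd37, had 133 to 258 and 199.95 to 298 CPM (adjusted p = 0.487).

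Of 8 pre-B cell and recombination genes, 2 were called higher and 0 lower, with a median of 0.76. Without floxed replicate 3, 3 were called higher, where 2.47% of all genes were, and without any other single library 0 were. Vpreb1 and Vpreb2 encode parts of the surrogate light chain, which pairs with the IgM heavy chain before a light chain is made. Vpreb1 had 3.64 to 9.97 CPM in floxed and 16.3 to 23.0 CPM in KO libraries (log2 fold change 1.66 ± 0.29 SE, adjusted p = 0.0266). Vpreb2 had 0.54 to 1.49 and 2.89 to 4.203 CPM (log2 fold change 1.84 ± 0.35 SE, adjusted p = 0.0308). With the replicate block their adjusted p were 0.118 and 0.154 in edgeR's fit. Rag1, the most abundant of the list, encodes a subunit of the recombinase that assembles antibody genes and had 24.3 to 89.3 and 29.9 to 37.7 CPM (adjusted p = 0.583).

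In the plasma cell lists 0 of 23 genes were called by edgeR or DESeq2. Of the 8 regulators and surface genes, 1 was higher and 2 lower at an unadjusted p under 0.05, with a median of -0.39, and of the 15 genes of the secretory machinery 2 were higher and 3 lower, with a median of -0.17. Xbp1, the factor that builds the secretory apparatus, had 67.5 to 178 CPM in floxed, lowest in floxed replicate 3, and 85.5 to 98.7 CPM in KO libraries (log2 fold change -0.62, adjusted p = 0.227). With that library left out, the difference was -0.84 on the log2 scale (adjusted p = 0.00345 in edgeR's fit). Prdm1, named after its values were seen, encodes the repressor that makes a B cell a plasma cell and had 2.67 to 3.88 and 1.26 to 1.78 CPM (log2 fold change -1.20, adjusted p = 0.0383, and 0.175 with the replicate block), under the fold threshold. Tent5c, the most abundant gene of the secretory list, had 372 to 853 and 773 to 829 CPM (adjusted p = 0.203), with floxed replicate 3 highest. Leaving that mouse out gave 1.10 on the log2 scale, higher in KO (adjusted p = 0.000591 in edgeR's fit). Tent5c does not stand for its list, in which 2 genes were higher and 5 lower in that fit at an unadjusted p under 0.05, with 0 called. The regulators and surface genes had 2 higher and 2 lower there. Against these, the summed level of the 10 antibody genes was 2949, 1260 (replicate 3), 4561 and 4413 CPM in floxed and 1180, 1092, 1394 and 1427 CPM in KO libraries.

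Of 19 class switch recombination genes tested, 0 were called by edgeR or DESeq2 (5 higher at an unadjusted p under 0.05), with a median of 0.04. Apex2 had the highest counts of the list, but its span overlaps that of Alas2, an erythroid gene, and the counts of both are nearly the same, so the value may not be its own. Among 10 tested antibody receptors and transporters, 1 was called lower and 0 higher, with a median of -0.25. Fcer1a, the IgE-binding chain of the receptor on mast cells and basophils, had 3.16 to 14.8 CPM in floxed, with floxed replicate 3 lowest, and 1.77 to 2.95 CPM in KO libraries (log2 fold change -2.22 ± 0.44 SE, adjusted p = 0.0346, and 0.185 with the replicate block). Fcer1g, a shared signalling chain of these receptors, was the most abundant, at 87.5 to 299 and 153 to 193 CPM (adjusted p = 0.618, and 0.0350 without floxed replicate 3, with a log2 fold change of -0.57).

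**Figure D5:**
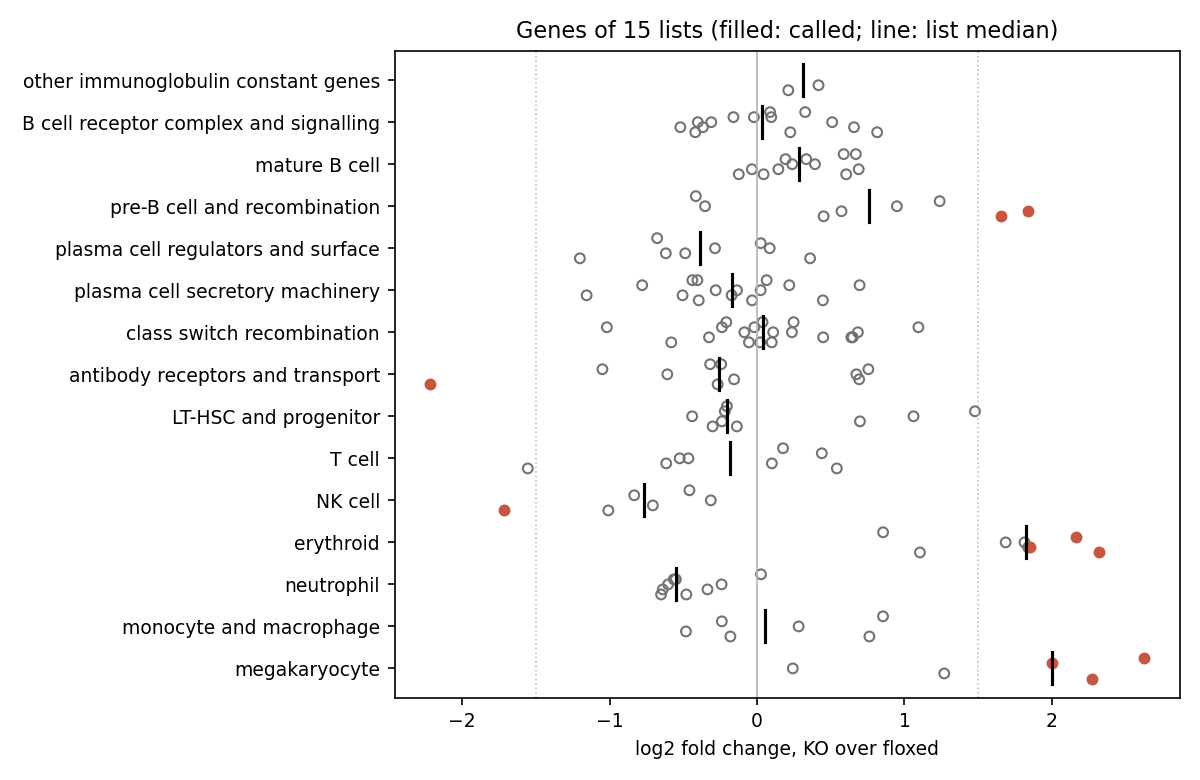
Log2 fold change of KO over floxed for each tested gene of the 15 lists, with filled points for called genes, a vertical line at each list's median and dotted lines at the fold threshold. In the 8 antibody lists at the top, Vpreb1 (1.66) and Vpreb2 (1.84) are called higher and Fcer1a (-2.22) lower, and the erythroid and megakaryocyte lists lie farthest to the right.

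Markers of other cells moved with the genotypes too, and their part in the values above was not tested. Of 8 erythroid genes, 3 were called higher in KO, Hbb-bt, Hba-a1 and Klf1, where 0.452% of all genes tested were, with a list median of 1.83. Of 5 megakaryocyte genes, 3 were called higher (Pf4, Ppbp and Gp9), with a median of 2.002 and a summed level of 61.7 to 127 CPM in floxed and 201.9 to 242 CPM in KO libraries. With the replicate block only Pf4 of these 6 genes was called. Of 6 NK cell genes, 1 was called lower (Ncr1, adjusted p = 0.0291 in edgeR's fit, and 0.122 with the replicate block), where 0.74% of all genes tested were, with a median of -0.77. None of the neutrophil, T cell, monocyte or stem and progenitor markers were called by edgeR or DESeq2, with medians of -0.55, -0.18, 0.05 and -0.20. At an unadjusted p under 0.05, 0 of 9 neutrophil, 2 of 8 T cell, 1 of 6 monocyte and 2 of 9 stem and progenitor genes passed in edgeR's fit. Without floxed replicate 3, 7 neutrophil genes were lower at that level, 2 monocyte genes were higher and 3 lower, and 2 stem and progenitor genes were higher and 3 lower. In that fit 1 monocyte and 1 stem and progenitor gene were called higher, and 7 of the 8 erythroid genes were, where 2.47% of all genes were called higher. Floxed replicate 3 was the lowest of the 8 libraries in the summed neutrophil markers (15720.3 CPM, against 23524 to 49058 CPM in the other 7) and in the summed monocyte markers (472 CPM). No marker of any of the 15 lists that the annotation holds was at 0 in all libraries.

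The genes whose levels moved most like Ighm, Igkc and Jchain between mice of a genotype were sought outside the antibody loci. The measure was Pearson's r of log2(CPM + 1), centred on each genotype mean, over the 8 libraries, given as a description. Libraries share depth and composition, and floxed replicate 3 alone gave 66.1% of the squared deviations of Igkc, 58.6% of those of Jchain and 7.74% of those of Ighm. For Ighm they were Cyyr1, Lmf1, Psd, Ndufa11b and Mir6537 (r from 0.990 to 0.998), for Igkc Rit1, Arhgdib, Pde6h, Cphx3 and Sdf2l1 (0.997 to 0.998), and for Jchain Bcl2a1b, Pfkfb3, Ccl6, Npepps and Tnnt1 (0.993 to 0.998). Arhgdib and Pde6h had nearly the same levels (544 and 523 CPM in floxed replicate 3) and log2 fold changes (-0.64 and -0.65). Whether they share reads was not checked, so they may not be separate cases. Among the 10 genes themselves, Igkc had r = 0.995 with Igha, 0.989 with Ighg3, 0.962 with Ighg1 and 0.942 with Iglc1, but -0.84 with Ighd. Without floxed replicate 3 these were 0.961, 0.906, 0.746, 0.272 and -0.43. Jchain had r = 0.728 with Igkc over the 8 libraries and -0.63 over the 7 without floxed replicate 3.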

How the data were processed

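RNA-seq counts of LT-HSCs from 4 asrij floxed and 4 asrij KO mice were used, grouped by the sample titles. The authors trimmed reads with Trim Galore after FastQC, aligned them with Bowtie2 to GRCm38/mm10 transcripts and deposited a whole-number count for each of 138930 Ensembl transcripts, not normalized. 7 of the 8 deposited files are tab-separated under a comma-separated name, so their unit was recorded as another unit, and whole numbers were checked in all 8. The counting tool, annotation release and use of strand are not given in the sources used here. Of the transcripts, 138789 matched GENCODE M21 (GRCm38).

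A transcript's count covers its genomic span with introns: for all 4405 pairs in which a transcript with at least 800 counts lies inside an intron of another gene, the outer count was at least the inner count in every library. A gene was given its transcript with the highest total. Genes kept by filterByExpr were normalized by TMM and fitted with glmQLFit and glmQLFTest in edgeR 4.0.16 under R 4.3.3, and p-values were adjusted by Benjamini-Hochberg over 21902 genes. DESeq2 1.42.0 was an alternative. In simulated data with known changes, over 21360 genes, edgeR found 82% of the changed genes, and 3.53% of the genes it called were unchanged. For DESeq2 these were 89% and 11.4%. The simulated libraries held no groups by number and no outlying library, so these rates may not hold for the real ones. Membrane parts are the count of the long minus that of the short transcript. Igkc and Iglc1 each overlap a gene model that may count the same reads. The total of Gm30211 was 106.4% of that of Igkc, and the total of 2010309G21Rik was 247.45% of that of Iglc1. The transcripts' sequences are GENCODE's. Python 3.11.15 with scipy 1.17.1 was used for intervals.

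The 10 genes and all lists were chosen with earlier results of these data known. The text names the 10 genes, Ociad1, and of each antibody list the called genes and the one with the highest mean CPM. It also names the called genes of the other lists and Kit, Ly6a and Slamf1, with Cd79a and Prdm1 added after their values were seen. For Ighm, Igkc and Jchain it names the 5 genes with the highest centred correlation, clone and model names aside. Numbers 3, 4 and 5 occur in both genotypes in the labels. Their deviations correlated at 0.427, 0.454 and 0.707, and the numbers served as a block, although the mice are different. Pairs of other numbers within 1 to 3 or within 4 and 5 correlated at 0.359 to 0.711, and all others below 0. Libraries of the same number therefore did not stand out from others of their group. Alternatives were RLE size factors, DESeq2, no filter, sums over transcripts, no haemoglobin genes, both blocks, other lengths and leaving out each library. With 4 mice a group, p-values rest on the spread between these mice.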

Additional observations from a re-analysis of the deposited data

Results flagged for a closer look

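In 36 groups of 4 libraries examined for the 10 genes, their ratios and the membrane parts, 6 had 1 library apart from the others by Dixon's test at the 95% level, where chance would give about 1.8. All 6 were floxed replicate 3. On the log2(CPM + 1) scale it had 2.29 for Ighg1 where the other floxed libraries had 7.86 to 8.39, 4.77 for Ighg2b against 7.98 to 8.45, 3.01 for Ighg2c against 7.10 to 7.81, and 3.08 for Iglc1 against 5.59 to 5.94. Switched chains were 16.5% of its heavy-chain CPM against 60.8% to 62.4%, and its Igha level was 2.53 times its summed IgG level against 0.69 to 0.81 times. In the other 6 genes no library stood apart by this measure. The same library was lowest in summed neutrophil and monocyte markers, and the part of those cells in its antibody values was not tested.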

How the results depend on the processing

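For the 10 genes, the log2 fold change kept its direction and moved by less than the spread between libraries under all 16 alternative fits. The number of them called lower was 5, but 8 with DESeq2, 7 with no filter and with the block for numbers 4 and 5, 4 with sums over transcripts, 0 with the replicate block, 0 in the same 6 libraries with no block (an alternative chosen after seeing the data), and 0 to 8 with 1 library left out. The last was highest without floxed replicate 3. Both fits of 6 libraries hold fewer samples, so the lost calls cannot be assigned to the block. Of the antibody lists, 2 genes were called higher and 1 lower, against 0 and 0 with the replicate block and in the same 6 libraries with no block, and 0 to 4 and 0 to 2 with 1 library left out. With the replicate block, the log2 ratio of switched to unswitched chains differed by -1.65 and the share of the Ighm membrane part by 8.53 percentage points. Over all 8 libraries with no block they differed by -1.89 and 10.4. The former ran from -2.65 to -1.63 and the latter from 8.42 to 12.1 with 1 library left out. The membrane part of Ighd differed by 5.15 percentage points, and by 1.10 without floxed replicate 3. RLE size factors, sums over transcripts, no haemoglobin genes and other lengths kept the direction of the log2 ratio of switched to unswitched chains, and were not run for the membrane parts. Depth limits the membrane share of Ighd (± 3.27 percentage points at most) and the membrane parts of the switched chains, with at most 34 counts a library.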
